A study of Mus musculus with 6 samples.

Results

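The genes described here were 7 enzymes of heme synthesis (Alas1, Alad, Uros, Urod, Cpox, Ppox and Fech) and the 2 heme oxygenases (Hmox1 and Hmox2). They were chosen by gene symbol, and all 9 were found among the 24422 genes counted. Poly-A RNA of 6 mouse kidneys at postnatal day 60 was sequenced, from 3 wild type controls and 3 mice labelled TfR1KO;KspCre, which are called knockouts here. Both groups had the strain C57BL/6 and a diet with 220 ppm iron. The knockouts carry floxed alleles of the gene of TfR1 (transferrin receptor 1, the receptor by which cells take up iron bound to transferrin) and the transgene KspCre, in which the Ksp-cadherin promoter drives Cre recombinase in the distal nephron. Whole kidney RNA also holds the cells in which this Cre is not active, and the labels give neither a Cre transgene nor a floxed allele for the controls.

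Heme is an iron porphyrin that serves as the prosthetic group of hemoglobin, of respiratory cytochromes and of many oxidases. Its synthesis begins and ends in the mitochondrion, with the middle steps in the cytosol, and the last enzyme inserts ferrous iron into protoporphyrin. Heme oxygenases open the porphyrin ring and release iron, carbon monoxide and biliverdin. Heme itself lowers Alas1 and relieves Bach1 repression of Hmox1, so both ends of the pathway are known to respond to the heme level. In the kidney, heme serves mitochondrial respiration and cytochrome P450 enzymes, and mitochondria are dense in the proximal tubule and the thick ascending limb.

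Before the results, some facts of the libraries bear on every value. Total counts ranged from 11501053 to 21001341, the smallest library being knockout 3. The library labelled knockout 1 lay between the groups on the first principal component, at 9.67, where the controls lay from -72.6 to -53.2 and the other knockouts at 82.1 and 88.6. Control 2 held only 52 Xist counts and was the 1 library with more than 4 counts of a Y-linked gene. Counts of Tfrc, the floxed gene, did not separate the groups (log2 fold change -0.11, edgeR adjusted p 0.911), so they gave no check of the labels. The library labelled knockout 1 had the highest Tfrc level of the 6, 214 CPM (counts per 1e+06 counts of a library). In comparison, controls had 62.0 to 168 and the other knockouts 40.6 and 86.0 CPM. Whether the label of knockout 1 is right was not tested, and knockout 1 is used below as a label only. In bulk RNA, fewer cells of a type and less RNA per cell cannot be told apart. All 16 proximal tubule markers had lower estimates in knockouts, 9 of them called, against 6.64% of all genes called lower. Their summed level was 24015 to 59476 CPM in controls against 3447 to 11749 in knockouts. Of these sums Kap (named after its values were seen) held 31293 CPM in control 2, against 6180 and 11964 in controls 1 and 3 and 102 to 1539 in knockouts. Of the 9 thick ascending limb markers 8 had lower estimates, and the 9 summed to 5708 to 12490 CPM in controls and 1012 to 7343 in knockouts. Of the 9, 0 were called by edgeR and 2 had an unadjusted p under 0.05, as had 5862 of the 15171 genes tested. The 6 distal convoluted tubule markers summed to 2615 to 3890 CPM in controls and 462 to 2915 in knockouts. Of the 6, 1 was called lower, against the same 6.64% of all genes. Of 11 macrophage markers 10 were called higher, against 10.6% of all genes. The 11 summed to 196 to 226 CPM in controls and 634 to 2282 in knockouts. The part of these shifts in the results on heme genes was not tested.

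To place the enzymes on the genome and show what lies at their starts, promoter windows of RefSeq (build GRCm38.p6, 250 bases before to 50 after each start) were searched on both strands. A window was given for 7 of the 9 genes, all but Fech and Hmox1. The letters GCGCATGC, the core of the motif of the factor NRF1, an activator of genes for mitochondrial proteins, were in the windows of Alas1 alone among the 7, and 3.05% of 27025 genes with a window held them. The letters CACGTG, an E-box, were in windows of Alad, Uros and Urod, against 8.09% of all genes. The letters TGANNNNGC, a short form of the antioxidant response element, were in Uros and Cpox, against 45% of all genes. Short stretches are shown because they hold the NRF1 core and the E-boxes with their flanks in Alas1, Alad and Urod, with the matched letters in capitals. The capitals in Alas1 are a pair of overlapping matches, one on each strand. All run 5′ to 3′ on the minus strand, which is the strand of the gene, at chr9:106247906-106247935 for Alas1, chr4:62520151-62520180 for Alad and chr4:116994445-116994474 for Urod.

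Alas1: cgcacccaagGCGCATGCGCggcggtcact

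Alad: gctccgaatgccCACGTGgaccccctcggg

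Urod: cactggatcggtCACGTGgttctcaatatg

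The match began 30 bases after the upstream start of Alas1, 105 bases before the upstream start of Alad (at -105) and 49 bases before the start of Urod (at -49). These are matches of letters, not measured binding.

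All 9 genes passed the filter on low counts and were among the 15171 genes tested. Of the 9, 2 were called lower in knockouts, Uros and Fech, and 0 were called higher (quasi-likelihood test of edgeR, with Benjamini-Hochberg adjusted p values over all genes tested under 0.05). Of all genes tested, 17.2% were called, 6.64% lower and 10.6% higher. The estimate was below 0 for 8 of the 9 genes, against 48.5% of all genes. An unadjusted edgeR p under 0.05 was found for 4 of the 9 genes and for 5862 of the 15171 genes tested. The median log2 fold change (knockout minus control) was -0.55 over the 9 genes and -0.73 over the 7 synthesis enzymes, where the median of all genes was 0.02. In 4 of the 9 genes all 3 knockouts lay below all 3 controls, a pattern seen in 22.2% of all genes tested, and none had all knockouts above all controls, which 23.8% of all genes had.

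**Figure D1:**
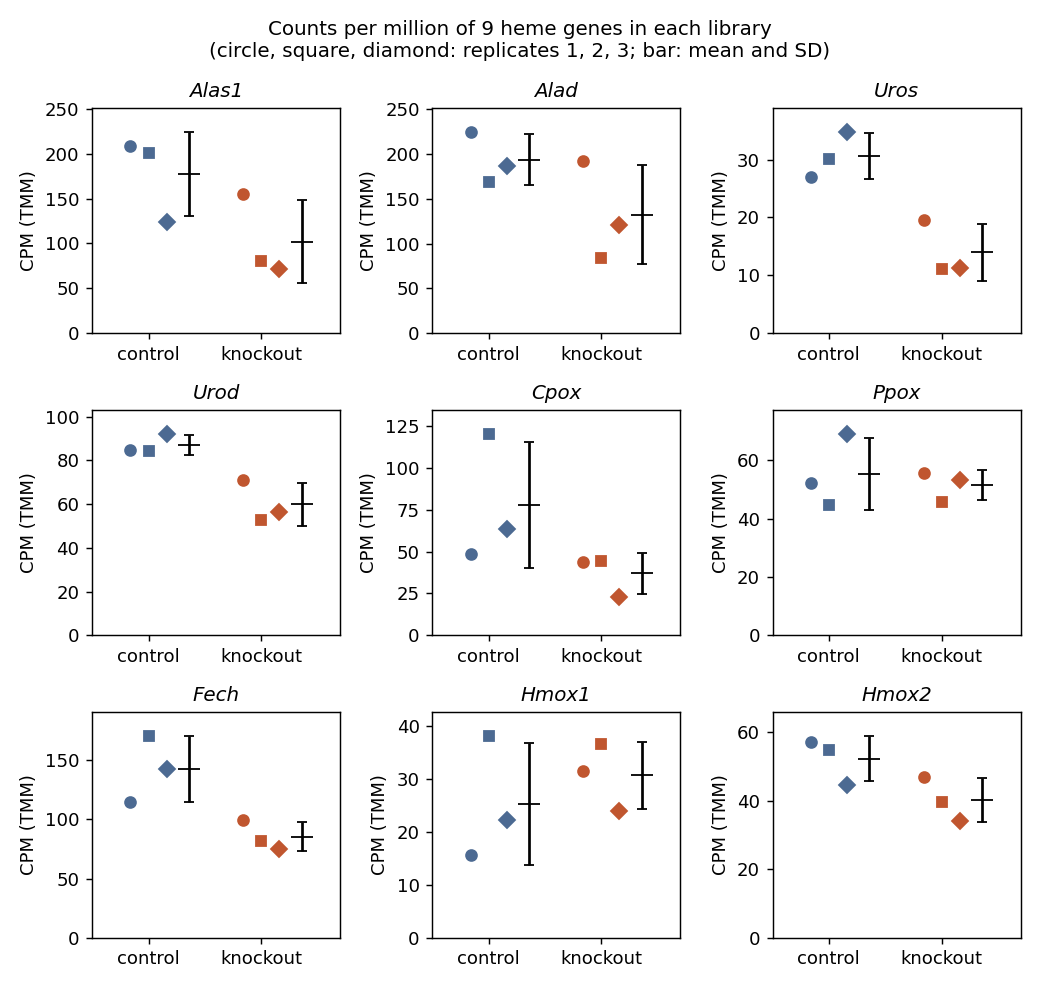
Level of each of the 9 genes in every library, in CPM after TMM scaling (y axes starting at 0), with circles, squares and diamonds for replicates 1, 2 and 3 and bars for mean and SD (n = 3). The knockouts lie below the controls without overlap in Uros, Urod, Cpox and Fech, and knockout 1 is the highest knockout in 7 of the 9 genes.

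The first enzymes of the pathway were lower on average in knockouts, but their groups overlapped. Alas1 (ENSMUSG00000032786, chromosome 9, 106135786 to 106150457, minus strand, mm9) encodes 5-aminolevulinate synthase 1, the rate-limiting enzyme outside red cell precursors. It was at 209, 200.4 and 124 CPM in controls 1 to 3 and at 155, 80.0 and 71.0 CPM in knockouts 1 to 3. These CPM values were scaled by TMM, which evens out differences in composition between libraries. Knockout 1 exceeded control 3, and the other knockouts lay below every control. Control libraries averaged 178 ± 46.8 CPM (SD, n = 3) and knockout libraries 102 ± 46.0 CPM (SD, n = 3). On the log2 scale the fold change of -0.80 (SE 0.35) did not pass (edgeR, adjusted p 0.138). Without knockout 1 it was -1.24 and passed, at an adjusted p of 0.014 in edgeR, in a fit that called 34.4% of all genes tested, and without knockout 3 it was -0.60 (edgeR, adjusted p 0.319).

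Alad (ENSMUSG00000028393, chromosome 4, 62170203 to 62180952, minus strand) encodes the zinc enzyme that joins aminolevulinate molecules into porphobilinogen. It was at 225, 169 and 187 CPM in controls and at 192, 83.5 and 121 CPM in knockouts. Knockout 1 lay within the control range and knockouts 2 and 3 below it. At a log2 fold change of -0.55 (SE 0.31) it was not called (edgeR, adjusted p 0.226). As for Alas1, the fit without knockout 1 gave a larger value, -0.93, with an adjusted p of 0.022 in edgeR, and the fit without knockout 2 a smaller one, -0.31 (edgeR, adjusted p 0.450).

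Uros was lower in every knockout than in any control. Uros (ENSMUSG00000030979, chromosome 7, 140877926 to 140901755, minus strand) encodes uroporphyrinogen III synthase, which closes the tetrapyrrole ring. It was at 27.0, 30.03 and 34.8 CPM in controls and at 19.6, 11.1 and 11.2 CPM in knockouts. Knockout 1 lay nearest to the controls. The means were 30.6 ± 3.96 CPM (SD, n = 3) and 14.0 ± 4.88 CPM (SD, n = 3), and the level was 2.19-fold lower in knockouts. This gave a log2 fold change of -1.13 (SE 0.26) and passed (edgeR, adjusted p 0.037). The lowest count of the 9 genes in any library was that of Uros in knockout 3, with 146 reads, for which counting error alone is 8.28%.

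Fech, the other enzyme called, acts at the end of the pathway. Fech (ENSMUSG00000024588, chromosome 18) encodes ferrochelatase, which inserts iron into protoporphyrin and itself holds an iron-sulfur cluster. It was at 115, 170.4 and 142 CPM in controls and at 99.5, 82.2 and 75.1 CPM in knockouts. The groups did not overlap, and knockout 1 and control 1 were the nearest pair across them. The level was 1.66-fold lower in knockouts (log2 fold change -0.73, SE 0.19, adjusted p 0.046 in edgeR).

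The calls of Uros and Fech held without knockout 1 (edgeR, adjusted p 0.0036 and 0.020) but not without any other library. Both were lost in each fit without control 1, 2 or 3, or without knockout 2 or 3, in which 0 to 73 genes of the whole table were called by edgeR and 4270 to 4823 had an unadjusted p under 0.05. The log2 fold changes stayed between -1.23 and -0.99 for Uros and between -0.89 and -0.60 for Fech in those 5 fits. The adjusted p values were 0.0823 to 0.121 for Uros and 0.0805 to 0.139 for Fech (edgeR). A covariate for the ratio of Xist to Y-linked counts sets control 2 apart. With it the log2 fold changes were -1.15 for Uros and -0.60 for Fech, with adjusted p values of 0.115 and 0.136 (edgeR). In that fit edgeR called 0 genes in the whole table, with 4219 at an unadjusted p under 0.05. Fech also lost its call with scaling by library size alone (log2 fold change -0.46, edgeR adjusted p 0.071), where the median of all genes was 0.29 instead of 0.02, and with library sizes taken without the 10 highest genes (-0.51, edgeR adjusted p 0.061).

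Urod and Cpox had the next smallest adjusted p values. Urod (ENSMUSG00000028684, chromosome 4, 116662570 to 116667018, minus strand) encodes uroporphyrinogen decarboxylase, a cytosolic enzyme. It was at 84.6, 84.3 and 92.03 CPM in controls and at 71.1, 52.5 and 56.2 CPM in knockouts. The controls lay close together and all knockouts lay below them. Its log2 fold change of -0.54 (SE 0.15) was just outside the threshold (edgeR, adjusted p 0.052), and it passed with DESeq2 size factors (edgeR, adjusted p 0.045). With library size alone it was -0.27 and with library sizes taken without the 10 highest genes -0.32 (edgeR, adjusted p 0.183 and 0.133).

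Cpox (ENSMUSG00000022742, chromosome 16, 58670321 to 58680504, plus strand) encodes coproporphyrinogen oxidase, found between the mitochondrial membranes. It was at 48.8, 120.1 and 63.8 CPM in controls and at 43.6, 44.3 and 22.9 CPM in knockouts. Control 2 was by far the highest library, and knockouts 1 and 2 came close below control 1. Its log2 fold change was -1.07 (SE 0.39, edgeR adjusted p 0.095) with all libraries and -0.62 (edgeR adjusted p 0.256) without control 2.

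The levels of Ppox overlapped throughout. Ppox (ENSMUSG00000062729, chromosome 1, 173206121 to 173211317, minus strand) encodes protoporphyrinogen oxidase, the enzyme just before ferrochelatase. It was at 52.1, 44.8 and 69.0 CPM in controls and at 55.5, 45.6 and 53.2 CPM in knockouts. All 3 knockouts lay within the control range. Its log2 fold change was -0.11 (SE 0.19, edgeR adjusted p 0.705), and its sign turned with scaling by library size alone (0.16), with library sizes taken without the 10 highest genes (0.11) and without control 3 (0.08). Exons of B4galt3 on the opposite strand cover 17.5% of the exon bases of Ppox, and without a known strand setting their reads cannot be told apart.

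**Figure D2:**
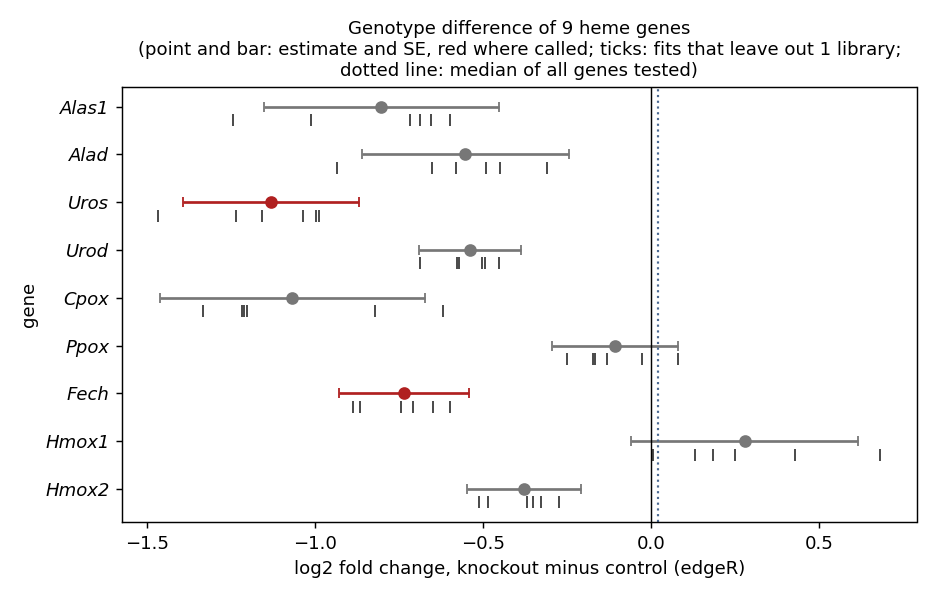
Log2 fold change of each gene, knockout minus control (x axis), with its SE from edgeR, red for the 2 genes called, and short ticks for the fits that leave out 1 library each. The ticks of Uros and Fech stay left of the dotted median of all genes (0.02), while those of Ppox and Hmox1 reach 0.08 and 0.68.

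Neither heme oxygenase was called. Hmox1 (ENSMUSG00000005413, chromosome 8, 77617490 to 77624495, plus strand) encodes the form induced by heme and oxidative stress. It was at 15.6, 38.0 and 22.2 CPM in controls and at 31.4, 36.5 and 23.8 CPM in knockouts. Control 2 was the highest of all 6 libraries, and the knockouts lay within the control range. The estimate on the log2 scale was 0.28 (SE 0.34, edgeR adjusted p 0.570). It ranged from 0.01 without control 1 to 0.68 without control 2 (edgeR, adjusted p 0.992 and 0.174). Hmox1 is also expressed by macrophages that take up red cells, and the macrophage marker sums given above were higher in all 3 knockouts than in any control.

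Hmox2 (ENSMUSG00000004070, chromosome 16, 4726361 to 4766742, plus strand) encodes the constitutive form. It was at 57.1, 54.7 and 44.7 CPM in controls and at 46.7, 39.5 and 34.1 CPM in knockouts. Knockout 1 overlapped with control 3, and the other knockouts were below all controls. The log2 fold change was -0.38 (SE 0.17, edgeR adjusted p 0.146). Exons of 5730403B10Rik on the opposite strand cover 40.2% of its exon bases, which makes its level uncertain.

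Ratios of counts within a library do not depend on how libraries are scaled, and 2 of them were compared. The ratio of Hmox1 to Hmox2 was 0.273, 0.694 and 0.497 in controls and 0.672, 0.924 and 0.699 in knockouts. Control 2 lay among the knockouts and the other controls below them. The mean log2 ratio was 0.73 higher in knockouts, with p = 0.2 in a two-sided exact permutation test. Without control 1, where the ratio was lowest, the difference was 0.37.

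The ratio of Alas1 to Hmox1 sets the first enzyme of synthesis against the inducible enzyme of breakdown. It was 13.4, 5.28 and 5.59 in controls and 4.93, 2.19 and 2.98 in knockouts. The groups did not overlap, although knockout 1 came close to controls 2 and 3. The mean log2 ratio was 2.88 ± 0.75 (SD, n = 3) in controls and 1.67 ± 0.59 (SD, n = 3) in knockouts. The difference was -1.21, with p = 0.1 in a two-sided exact permutation test, the smallest value that 3 against 3 libraries allow. Adjusted over the 2 ratios, both p values were 0.2. Without control 1, where the ratio was highest, the difference was -0.77.

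**Figure D3:**
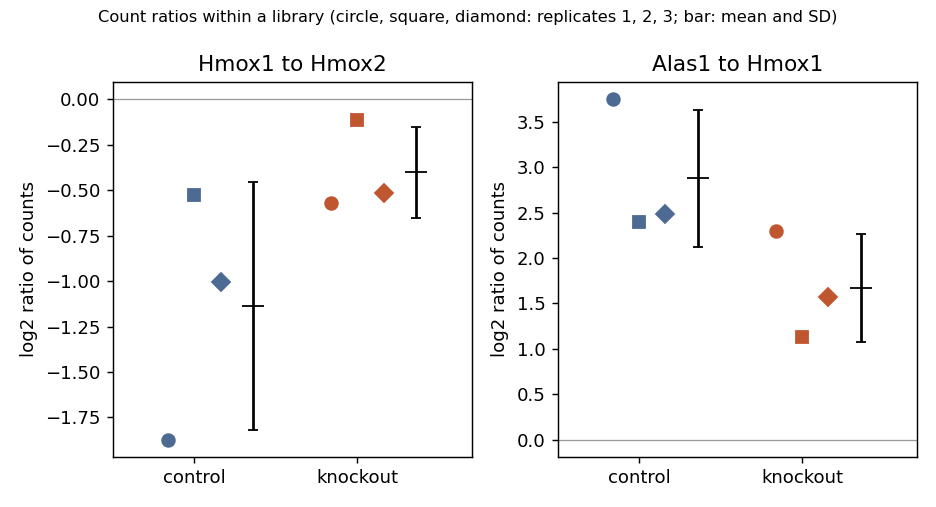
Log2 ratio of counts within each library (y axis) for Hmox1 to Hmox2 and for Alas1 to Hmox1, with circles, squares and diamonds for replicates 1, 2 and 3 and bars for mean and SD (n = 3). The Alas1 to Hmox1 ratios of the groups do not overlap, with means of 2.88 and 1.67, while control 2 lies among the knockouts for Hmox1 to Hmox2.

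Levels were compared between genes only as CPM per kilobase of exon. In controls the order was Alad (103.5 ± 15.3), Fech (49.1 ± 9.63), Alas1 (41.3 ± 10.9), Urod (33.6 ± 1.69), Cpox (24.3 ± 11.8), Hmox2 (23.5 ± 2.97), Ppox (12.3 ± 2.75), Hmox1 (11.7 ± 5.32) and Uros (8.56 ± 1.11 CPM per kilobase, SD, n = 3). The control ranges of neighbours in this order were apart only between Alad and Fech and between Hmox2 and Ppox. Knockouts had the same 4 genes at the top by their means. Uros had the lowest mean in both groups, but its control range overlapped with that of Hmox1. These levels depend on the exon length used. Over all annotated exons it was 3576 bases for Uros and 4515 for Ppox, against 1762 and 1821 bases for their longest coding transcripts. The order was not computed with transcript lengths and may differ with them.

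Knockout 1 was the highest knockout in 7 of 9 genes and the closest knockout to the control mean in 7 of 9, while knockout 3 was the lowest of all 6 libraries in 4 of 9. Control 2 was the highest control in 3 of 9, namely Cpox, Fech and Hmox1. Knockout 1 was also highest in the proximal tubule marker sums, which were 11749, 3839 and 3447 CPM in knockouts 1 to 3. Leaving out knockout 1 brought 5 of the 9 genes past the threshold, Alas1, Alad, Uros, Urod and Fech, where 34.4% of all genes passed. DESeq2's Wald test called 4 of the 9 lower, Uros, Urod, Cpox and Fech, where it called 32.3% of all genes. With limma-voom the called genes were Uros and Fech, where 13.4% of all genes were called.

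The genes whose profile over the 6 libraries lay nearest to that of a member were sought for Alas1 and Hmox1 among 11329 genes, by the root mean square difference of mean-centred log2 CPM. For Alas1 they included Myo5b (0.115), a myosin of vesicle recycling, and Rab11fip4 (0.142), an effector of Rab11. For Hmox1 the nearest were Zfp518b (0.207), Mdk (0.209), the growth factor midkine, and Prcp (0.243), a carboxypeptidase. The profiles nearest to Hmox1 were thus less close than those nearest to Alas1. These are descriptions over 6 libraries of shared scaling.

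The rest of the pathway was taken from 7 lists of 38 further genes, all of which were tested. Of these, 9 were called lower and 4 higher, against 6.64% and 10.6% of all genes, and the median log2 fold change was -0.40. These numbers of calls changed with the scaling, as did those of all genes. With library size alone 2 were called lower and 5 higher (median -0.13), against 662 and 2985 of all 15171 genes tested. Without the 10 highest genes in the library sizes 4 were lower and 5 higher (median -0.18), against 700 and 2606 of all genes. The lists' calls were lost with the same libraries. Of the 38, 0 were called without any 1 control or without knockout 2 or 3, where 0 to 73 of all genes were called. Without knockout 1, 23 were called, where 34.4% of all genes were called. Alas2, the form of the first enzyme in red cell precursors, was not called (log2 fold change -0.27, edgeR adjusted p 0.613). It was low, at 10.2 to 16.2 CPM in controls and 7.41 to 15.5 CPM in knockouts. All 6 hemoglobin genes of the red cell list were listed at 0 in every library. The whole red cell list summed to 69.5 to 124 CPM in controls and 9.53 to 61.9 in knockouts. Of its 3 tested genes 0 were called, with 1 estimate below 0 and 2 above.

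Of the 11 genes of heme and precursor transport, the longest list, 5 were called lower and 1 higher, where 17.2% of all genes were called. Flvcr1, a heme exporter listed under its older symbol Mfsd7b, was at 25.8, 27.98 and 32.7 CPM in controls and at 59.3, 62.1 and 112 CPM in knockouts. All knockouts exceeded all controls, by 2.69-fold on the log2 estimate of 1.43 (SE 0.27, edgeR adjusted p 0.030). Its relative Flvcr2, listed as Mfsd7c, went the other way, at 42.9, 35.7 and 44.4 CPM in controls and at 18.8, 9.99 and 7.35 CPM in knockouts (log2 fold change -1.76, edgeR adjusted p 0.031). The pair of transporter genes thus moved in opposite directions. The other lower genes were Slc46a1 (-1.07), a carrier of folate and heme, Abcb6 (-0.91), a porphyrin transporter, Slc25a38 (-0.66), the mitochondrial glycine carrier that feeds the first step, and Abcb10 (-0.54), a mitochondrial transporter needed for heme synthesis. Their edgeR adjusted p values lay between 0.041 and 0.047. With library size alone all 4 lost their calls (edgeR, adjusted p 0.052 to 0.142), and Flvcr1 and Flvcr2 kept theirs.

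In the list of heme use in cytochromes 1 of 5 genes was called, where 17.2% of all genes were called. It was Cox15, which makes heme A for cytochrome oxidase (log2 fold change -0.84, edgeR adjusted p 0.039, and 0.0513 with library size alone). All 5 had estimates below 0, from -1.11 to -0.30. The 4 genes of mitochondrial iron supply lay between -0.64 and -0.21, with 0 called by edgeR. Of the 4, 1 had an unadjusted edgeR p under 0.05, as had 5862 of the 15171 genes tested. With library size alone 2 of these 4, Slc25a37 and Slc25a28 (named after their values were seen), had estimates above 0, at 0.07 and 0.06. Of the 2 biliverdin reductases, which act next after the heme oxygenases, Blvra was 1.97-fold lower in knockouts (log2 fold change -0.98, edgeR adjusted p 0.040, and 0.0558 with library size alone) and Blvrb was not called (0.16, edgeR adjusted p 0.557).

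**Figure D4:**
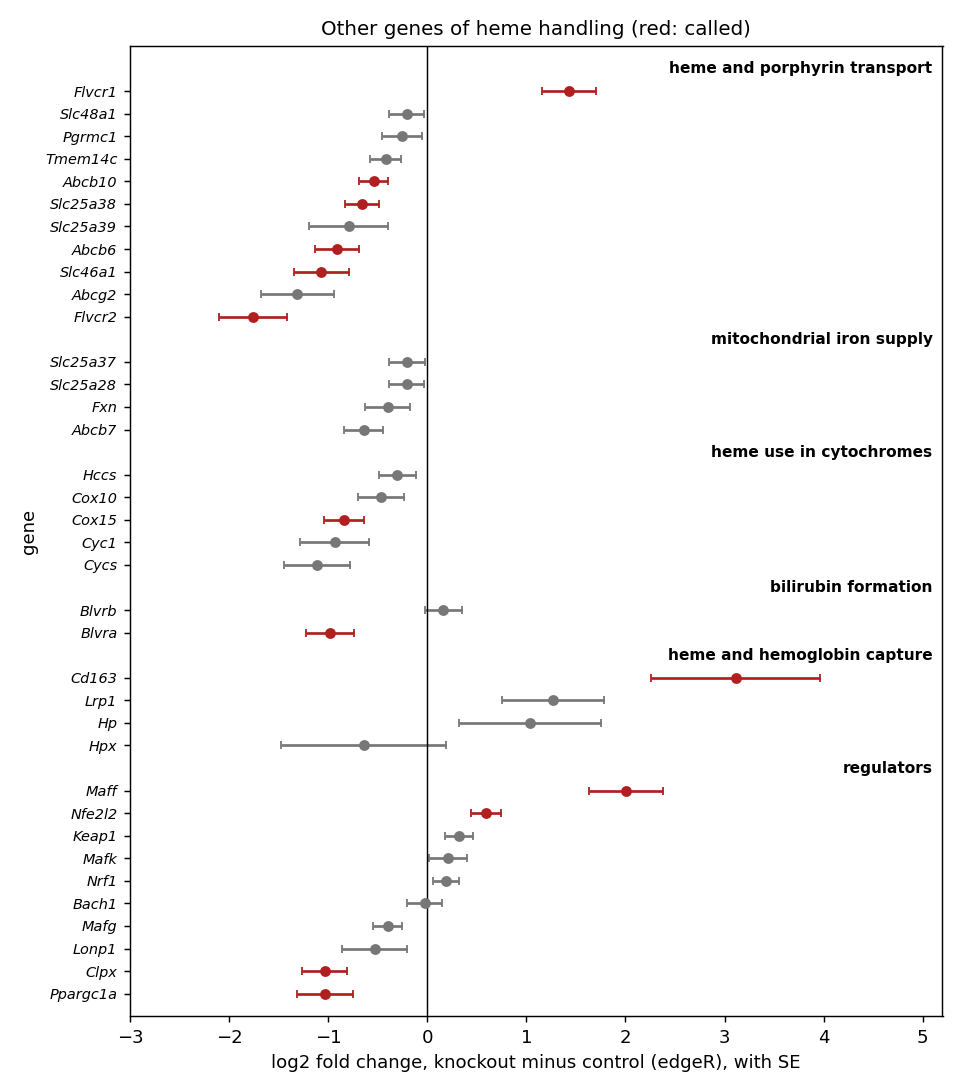
Log2 fold change, knockout minus control (x axis), of genes of heme transport, iron supply, heme use, bilirubin formation, capture and regulation with SE from edgeR, grouped by role and red where called. Of 11 transport genes 5 are red on the left and Flvcr1 alone is red on the right at 1.43.

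Among the regulators 2 of 10 were called lower and 2 higher, against 6.64% and 10.6% of all genes. Ppargc1a, a coactivator of mitochondrial genes and of Alas1, was at 161, 154 and 145 CPM in controls and at 109, 49.4 and 66.8 CPM in knockouts (log2 fold change -1.03, edgeR adjusted p 0.049). Its call ended with upper quartile scaling, library size alone, library sizes taken without the 10 highest genes and a minimum of 10 counts in every library (edgeR, adjusted p 0.0501 to 0.0643). Clpx, the chaperone subunit of the mitochondrial protease that acts on the ALAS enzymes, had the same estimate (-1.03, edgeR adjusted p 0.034). Nfe2l2, the activator of Hmox1 under oxidative stress, was at 140.1, 114 and 120 CPM in controls and at 171, 206 and 186 CPM in knockouts. All knockouts exceeded all controls (log2 fold change 0.59, SE 0.15, edgeR adjusted p 0.044, and 0.0582 with no filter). Maff, a small partner of that factor, was 4.01-fold higher (2.00, edgeR adjusted p 0.030). Bach1, the heme-sensitive repressor of Hmox1, was near 0 (-0.03, SE 0.17, edgeR adjusted p 0.927).

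In the list of heme and hemoglobin capture 1 of 4 genes was called, where 17.2% of all genes were called. Cd163, the receptor of macrophages for hemoglobin bound to haptoglobin, was at 1.84, 0.646 and 0.961 CPM in controls and at 1.96, 19.9 and 8.27 CPM in knockouts. Knockout 1 was hardly above control 1 and the other knockouts were far above it (log2 fold change 3.11, SE 0.86, edgeR adjusted p 0.0496). Without knockout 2 it was 2.12 (edgeR, adjusted p 0.126), and limma-voom did not call it (2.62, adjusted p 0.140). The macrophage marker sums were above every control in all knockouts, also in knockout 1 (634 CPM, against 196 to 226 in controls). The part of those cells in the Cd163 values was not tested.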

How the data were processed

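The authors deposited unnormalized counts of reads per gene, 1 table per group. Per the study's methods and the submitters' processing notes, the authors used TruSeq poly-A libraries read single-end for 100 bases, CASAVA 1.8.2, Trimmomatic, TopHat2 2.0.11 on mm9, unique mapping and HTSeq counts. The annotation and strand setting are not given in the sources used here. Unique mapping and unknown strand make counts of overlapping genes uncertain.

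Groups came from sample titles. Counts were analysed in R 4.3.3 with edgeR 4.0.16 (filterByExpr with a minimum count of 10 and a minimum total of 15, TMM, glmQLFit with the legacy dispersion scheme, glmQLFTest) over all 6 libraries with no covariate, with Benjamini-Hochberg adjustment over 15171 genes and calls at an adjusted p under 0.05. Standard errors are the log2 fold change over the square root of F. Ratios used a pseudocount of 0.5. Alternatives were other scalings and filters, limma 3.58.1 (voom), DESeq2 1.42.0, single libraries left out, a replicate block, a sex-linked covariate and other thresholds. Scripts were tested on simulated data before use. Replicates differed by far more than sampling noise (chi-square per degree of freedom 45.1 to 107.7), so each counted once. Positions and exon lengths are from GENCODE M1 on mm9. Every 100-base word of the 9 genes' longest coding transcripts was in no other gene.

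The members and lists were chosen with earlier results of these data known. The text names all members, every called gene of the other heme lists, Alas2, Blvra, Blvrb, Bach1 and Nfe2l2, and the 3 genes nearest in profile to Alas1 and to Hmox1 whose average log2 CPM reached 3. Some genes under this rule are counted but not reported here by name. Flvcr1 and Flvcr2 were matched through RefSeq synonyms.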

Additional observations from a re-analysis of the deposited data

How the results depend on the processing

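The 2 called heme genes became 1 with library size alone, 1 with library sizes without the 10 highest genes and 4 with DESeq2's Wald test. They became 0 with the Xist to Y covariate, 1 when at least 2-fold was also asked and 4 at an adjusted p under 0.1. The main fit called 17.2% of all genes tested. Library size alone called 24%, library sizes without the 10 highest genes 21.8%, DESeq2 32.3% and the covariate 0. With single libraries left out 0 to 5 heme genes were called, and 0 to 34.4% of all genes. The 13 called genes of the other heme lists became 7 with library size alone, 0 with the covariate and 7 at 2-fold, and 0 to 23 with single libraries left out. Among the fits that left out a library, the one without knockout 1 raised both counts and the others gave 0. Library size alone moved the median of all genes from 0.02 to 0.29, and the split of all calls from 1604 higher and 1008 lower to 2985 higher and 662 lower. Among the members' log2 fold changes the sign turned for Ppox alone (0.16 with library size alone, 0.11 without the 10 highest genes, -0.25 to 0.079 with single libraries left out, above 0 without control 3). For the other 8 genes it kept its direction in every alternative run.

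The labels do not say whether replicate numbers pair the samples. The correlations of deviations from the group means between same-numbered libraries were -0.13, 0.01 and 0.21. With 3 libraries per group they cannot decide this. With the replicate block, 0 heme genes were called (edgeR, 7 of 9 at an unadjusted p under 0.05), 0 of the other heme genes (18 of 38) and 0 of all genes (5432 of 15171). The paired differences of the log2 ratios were 0.73 for Hmox1 to Hmox2 and -1.21 for Alas1 to Hmox1, each with p = 0.25 in an exact sign permutation test. The direction of both ratios held under both other pseudocounts and without each library, at 0.37 to 1.04 and -1.52 to -0.77. Depth limits Uros most, and intervals of counting error cover neither animals nor library preparation.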
